A study of Harpegnathos saltator with 37 samples.

Results

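A total of 55 genes out of 14001 stood at least 6 times higher in the central brain of late pupae than in every group of adults of the ant Harpegnathos saltator. They were chosen on group means of FPKM, a read count per gene divided by gene length and scaled between libraries. The pupal mean had to be at least 5 FPKM and at least 6 times the mean of each of the 6 adult groups, and each of the 4 pupae had to lie above all of the adult group means. The rule took 0.393% of all genes and 0.872% of the 6307 genes with a pupal mean of at least 5 FPKM. Of the 55 genes 25 had a symbol and 30 only a LOC number, and 53 were annotated as protein coding and 2 as long non-coding RNA. They were not absent from adults. Only 23 of them had every adult group mean under 1 FPKM, and 8 had an adult group mean of 5 FPKM or more. They are therefore called pupa-high genes here, and their level in pupae against adults is given as a description, without a test.

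The study profiled polyadenylated RNA of the central brain in 37 libraries from 7 groups. Dissection took away the gnathal ganglion, the optic lobes and most of the antennal lobes, about 95%. Adults came from new nests without a queen or gamergates, each founded with 25 females aged 5 days and 3 males, in which ants that duel can become gamergates, reproductive workers. The adult groups were 4 workers and 5 duelers at day 10, 4 workers and 5 gamergates at day 20, and 9 hunting workers and 6 gamergates at day 120 after founding. The late pupae numbered 4. The labels give no genotype, strain or colony, and for the pupae no caste, sex or age in days. Nothing in them says that replicates are different nests or single brains. The p-values thus reflect only how far these libraries spread, which may be technical.

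During metamorphosis an insect brain is rebuilt. Pulses of the steroid ecdysone act through nuclear receptors, larval connections are pruned, adult neurons send out axons and dendrites, and adhesion molecules help them find their partners. The cells that enclose the nervous system, and the epidermis and tracheae beside it, lay down new extracellular matrix and cuticle in the same period. Most of what is known of the genes named below comes from Drosophila, and the roles given are background from that species.

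The reads per library implied by the steps of the lowest FPKM values ranged from 7.57 to 36.7 M over all libraries and from 14.59 to 15.6 M in the pupae. The pupae formed a batch of their own in the internal reference of the labels, as did the day 10 groups and the day 20 groups. Stage and batch, and adult age and batch, therefore cannot be told apart. In bulk RNA, fewer cells of a type and less RNA per cell cannot be told apart either. Markers of neurons and glia were detected in every pupa. The 8 muscle markers summed to between 11.0 and 30.4 FPKM in pupae and to between 16.8 and 808 FPKM in adults. The 5 retina and optic lobe markers summed to between 5.68 and 23.4 FPKM in pupae and to between 10.1 and 996 FPKM in adults.

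Pupa 2 stood apart from the other 3. Over the 6307 genes with a pupal mean of at least 5 FPKM, its log values correlated with those of the other pupae at a median r of 0.831, against 0.942 to 0.95 for pupae 1, 3 and 4 (across genes, which are not independent). Over 9941 genes other than the pupa-high ones it was nearer to adults, with r of 0.861 to 0.894 with the adult group means against 0.797 to 0.868 for the others. Its 9 neuron markers summed to 1007 FPKM, against 428, 477 and 509 FPKM in pupae 1, 3 and 4. The part of these differences in the results was not tested. Levels of the members are therefore given by pupa or with and without pupa 2, and the gene lists set beside them are given both ways. Chosen on pupae 1, 3 and 4 alone, the rule gave 69 genes, of which 51 were among the 55.

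The pupa-high genes reached from 5.00 FPKM in LOC112588072 to 433 FPKM in cib, with a median pupal mean of 18.7 FPKM. Their ratio of pupal mean to the highest adult group mean ranged from 6.65 to 203, with a median of 13.2. A ratio of at least 10 was found in 39 of them, of at least 20 in 19, of at least 50 in 9 and of at least 100 in 4. Without pupa 2 the median ratio was 14.5, and pupa 2 alone had a median ratio of 6.3. In 45 of the 55 genes all 4 pupae lay above every adult library, though the rule already placed each pupa above all adult group means. The share of other genes with such a separation was not counted. Only 15 of the 55 had all 4 pupae at 6 times every adult mean or more, 31 had 3 such pupae, 7 had 2 and 2 had 1.

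**Figure D1:**
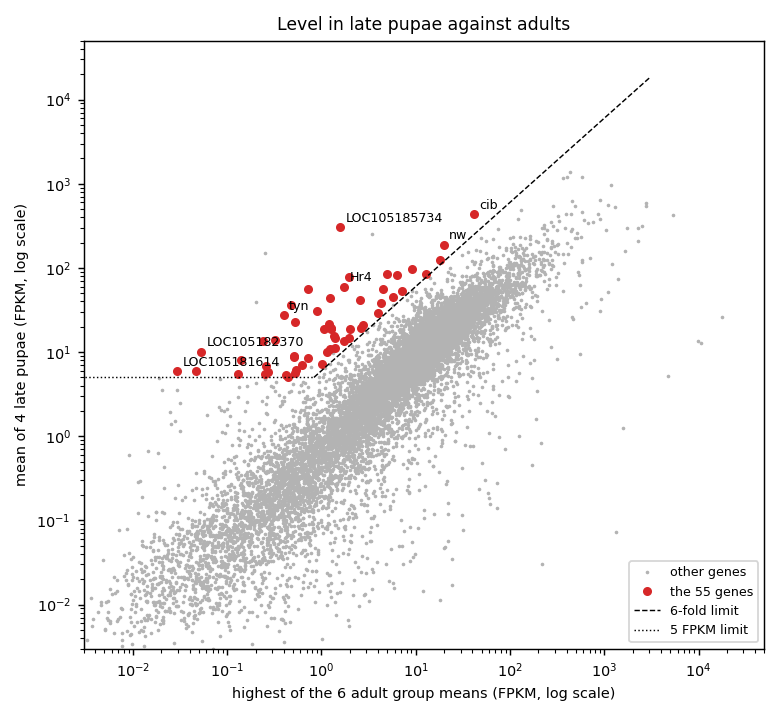
Mean FPKM of the 4 late pupae (vertical) against the highest of the 6 adult group means (horizontal), both on log scales, for all genes above 0 in both. Red points are the 55 pupa-high genes, which lie by choice above the dashed 6-fold limit and the dotted limit of 5 FPKM; cib lies highest at 433 FPKM and LOC105181614 farthest left at an adult mean of 0.0294 FPKM.

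**Figure D2:**
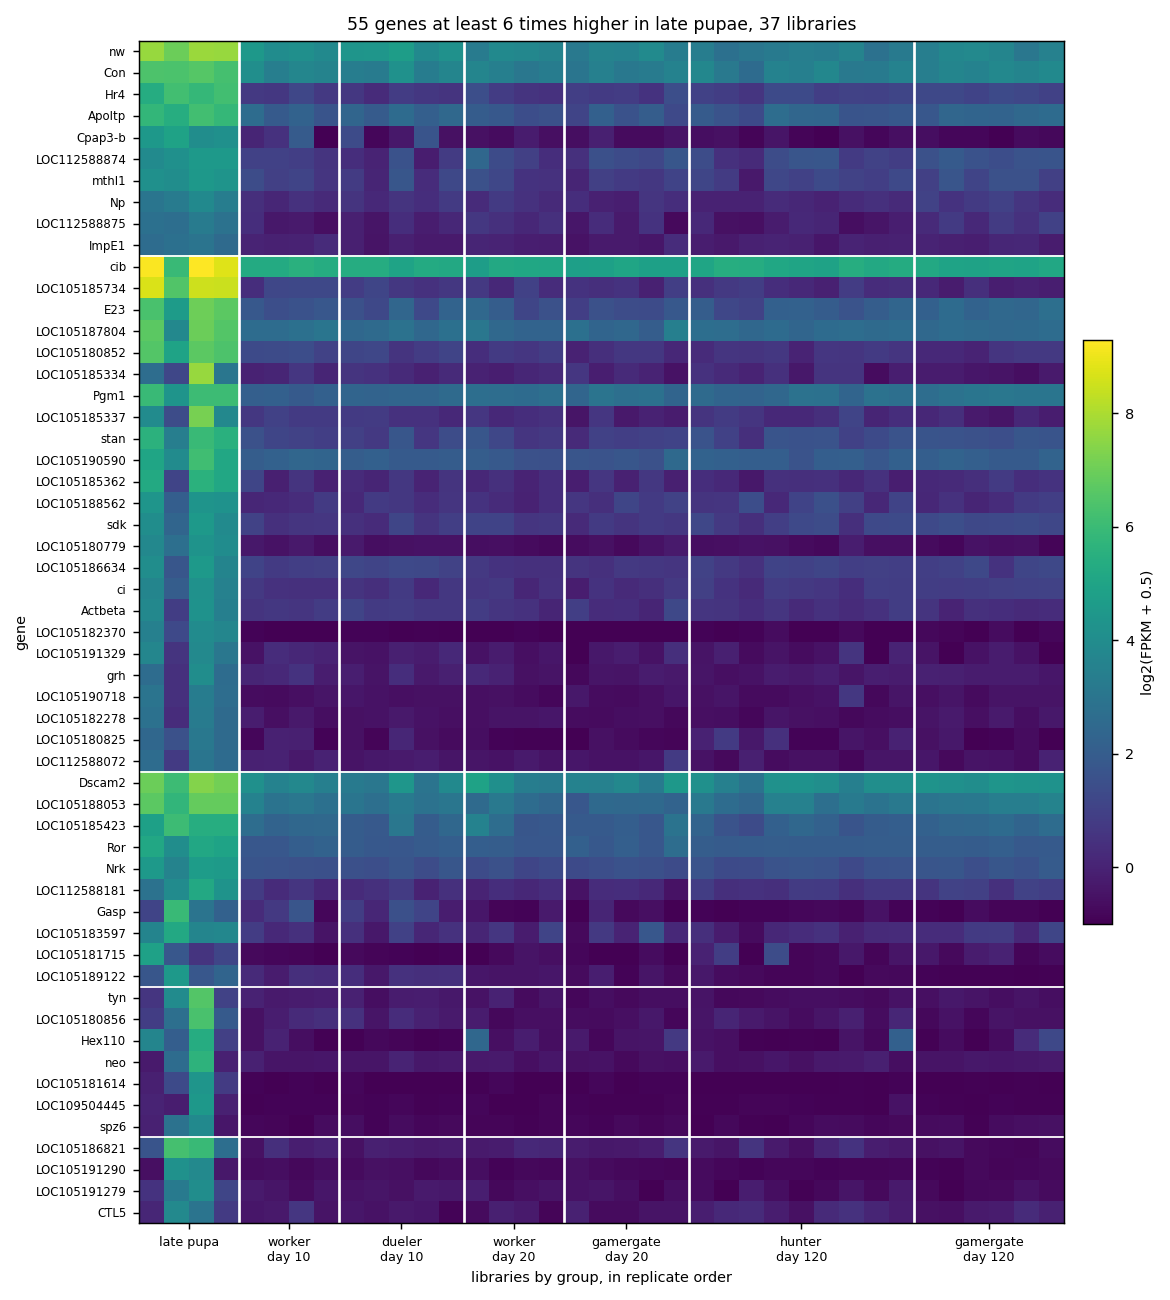
Levels of the 55 pupa-high genes (rows) in all 37 libraries (columns, by group), as log2(FPKM + 0.5). White horizontal lines separate, from the top, genes within 2-fold over the 4 pupae, genes with pupa 2 at most at 0.5 times each other pupa, genes of no such pattern, genes with pupa 3 at least 2 times each other pupa, and genes with pupae 2 and 3 at least 2 times pupae 1 and 4; a gene of several patterns stands in the first.

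Among the genes with a symbol, 3 are known from the ecdysone response. Hr4, a nuclear receptor of the ecdysone cascade, measured 40.5, 71.1, 57.3 and 70.9 FPKM in pupae 1 to 4. In adults it stayed between 0.705 and 2.26 FPKM in all 33 libraries, with the highest group mean of 1.75 FPKM in day 120 gamergates. The ratio was 34.2 with all pupae and 32.1 without pupa 2, so Hr4 was among the members on which pupa 2 did not stand apart. ImpE1, named for its induction by ecdysone in imaginal discs, was as even, at 5.67, 6.54, 7.23 and 5.31 FPKM in pupae 1 to 4 against 0.215 to 0.733 FPKM over the adult libraries. E23, an ecdysone-induced ABC transporter, measured 80.4, 24.4, 129 and 103 FPKM in pupae 1 to 4 against 1.38 to 6.30 FPKM in adults. Here pupa 2 was the lowest, and the ratio was 16.9 with it and 20.9 without it.

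Other genes of the hormone response were not of this kind. Of the 11 genes on a list of ecdysone receptors and early and late response genes, which holds Hr4 but neither E23 nor ImpE1, 6 had a pupal mean above every adult mean, and Hr4 alone was over 2-fold higher. Without pupa 2 the counts were 5 and 2, the second gene over 2-fold being Hr39, a nuclear receptor, at 8.94 ± 3.61 FPKM (SD, n = 3) against 4.22 FPKM. Over all 9986 genes with at least 1 FPKM in 4 libraries, 4.39% were over 2-fold higher in pupae than in every adult group, and 4.72% without pupa 2. E75, the most abundant of the list in pupae, stood at 101 ± 25.2 FPKM (SD, n = 4) against 78.4 FPKM in the highest adult group, and Eip93F at 80.9 ± 21.3 FPKM against 91.2 FPKM. Without pupa 2 Eip93F stood at 89.2 ± 16.5 FPKM (SD, n = 3), and E75 was again above every adult mean. The median of the list's log2 ratio of pupae to the highest adult group was 0.29, beside -0.27 for all of these genes. Without pupa 2 it was -0.03, beside -0.29, so the sign of the list's median rested on pupa 2.

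Genes of neurite growth and cell adhesion included cib, the most abundant member. The actin-binding beta-thymosin protein encoded by cib, ciboulot, is known for its part in axon growth during brain metamorphosis. It measured 607, 61.8, 625 and 438 FPKM in pupae 1 to 4. Adults held it at 26.2 to 45.9 FPKM in every library, so pupa 2 was above every adult but only 1.5 times the mean of day 10 workers, 41.2 FPKM. The ratio to that group was 10.5 with all 4 pupae and 13.5 without pupa 2.

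Dscam2, an immunoglobulin cell adhesion protein by which neurites of a kind keep apart, measured 127, 66.3, 164 and 135 FPKM in pupae 1 to 4. The 33 adult libraries ranged from 7.10 to 29.6 FPKM, with no overlap, and the highest adult mean was 18.3 FPKM in day 120 gamergates. Its ratio of 6.73 was close to the limit and was 7.76 without pupa 2. Con, connectin, a leucine-rich-repeat adhesion protein, was the evenest of the abundant members, at 84.7, 83.5, 94.5 and 75.7 FPKM in pupae 1 to 4. Adults ranged from 5.53 to 18.1 FPKM, and the ratio to day 10 workers was 6.65, the lowest of the 55.

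The atypical cadherin gene stan, flamingo, a gene of planar cell polarity and of axon and dendrite growth, stood at 48.9, 10.2, 63.0 and 46.1 FPKM in pupae 1 to 4. Its adult libraries lay between 0.672 and 2.91 FPKM. The synaptic adhesion gene sdk, sidekick, was at 16.0, 4.68, 23 and 14.5 FPKM, against 0.668 to 2.28 FPKM in adults. Ror and Nrk, receptor tyrosine kinases of the nervous system, were at 35.4, 15.9, 35.9 and 30.5 FPKM and at 22.9, 11.8, 25.2 and 24.1 FPKM in pupae 1 to 4, against highest adult means of 3.94 and 2.78 FPKM. In all 4 of these genes pupa 2 was the lowest and pupa 3 the highest.

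Among 28 genes on a list of axon guidance and adhesion, 25 had a pupal mean above every adult mean and 10 were over 2-fold higher, which is 35.7% beside 4.39% of all genes. Without pupa 2 these counts were 23 and 11, or 39.3% beside 4.72%. Dscam2 and Con were the members of the 55 on that list, and stan, sdk, Ror, Nrk and cib were not on it. The most abundant other genes of the list were Unc-76, at 153 ± 23.7 FPKM against 227 FPKM in day 10 workers, and Ten-a, a teneurin, at 134 ± 32.2 FPKM against 64.0 FPKM, with means of 142 and 143 FPKM without pupa 2. The list's median log2 ratio of pupae to the highest adult group was 0.83, and 0.80 without pupa 2.

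Other members are known from signalling and transcription. The hedgehog pathway transcription factor gene ci was at 12.4, 3.65, 17.7 and 11.1 FPKM in pupae 1 to 4 and between 0.386 and 1.57 FPKM in adults. Actbeta, an activin-type ligand of the TGF-beta family, was at 13.3, 1.34, 18.4 and 10.3 FPKM. Pupa 2 there was within the adult range of 0.522 to 1.85 FPKM. The same held for grh, grainyhead, a transcription factor of epidermis and neuroblasts, at 5.77, 0.848, 15.8 and 5.65 FPKM against adult libraries of 0.0853 to 0.925 FPKM. The spätzle family ligand gene spz6 was high in pupae 2 and 3, at 6.93 and 14.3 FPKM, and at 0.463 and 0.264 FPKM in pupae 1 and 4. No adult library exceeded 0.187 FPKM for it. A methuselah-like receptor gene, mthl1, was even over the pupae, at 15.8 to 22.2 FPKM against 0.323 to 2.88 FPKM in adults. On the list of Notch, Wnt, hedgehog, BMP and EGF pathway genes, which held no member, 6 of 22 genes with at least 1 FPKM in 4 libraries were over 2-fold higher in pupae than in every adult group, or 27.3% beside 4.39% of all genes, and 6 also without pupa 2.

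Genes of cuticle and apical extracellular matrix differed in how even they were over the pupae. Cpap3-b, a chitin-binding protein of the peritrophin-like cuticular family, was even, at 22.1, 30.1, 16.0 and 17.2 FPKM in pupae 1 to 4. Its adult libraries reached 3.41 FPKM, and 3 of them were listed at 0. Gasp, of the same wider family, was at 1.64, 61.9, 7.18 and 4.04 FPKM, so that pupa 2 set its mean of 18.7 FPKM. Without pupa 2 its mean was 4.29 ± 2.78 FPKM (SD, n = 3), 3.39 times that of day 10 duelers, and it would not have been chosen. The zona pellucida domain genes tyn and neo were at 1.00, 15.3, 91.4 and 1.53 FPKM and at 0.338, 5.74, 49.5 and 0.462 FPKM in pupae 1 to 4. For both, pupa 3 was highest and pupa 2 next, and for neo pupae 1 and 4 lay inside the adult range of 0.101 to 0.504 FPKM. Np, notopleural, a membrane-bound serine protease, was at 7.41, 9.16, 14.2 and 9.72 FPKM against 0.403 to 1.57 FPKM.

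Most measured genes of the cuticle list had the opposite order. The list of cuticular proteins held 18 genes, of which 10 had at least 1 FPKM in 4 libraries. A gene could pass that filter through 33 adult libraries but only 4 pupal ones, so it favoured genes high in adults. The low genes that it left out included some higher in pupae, CPR19 among them. Of these 10, Cpap3-b alone had a pupal mean above every adult mean, and their median log2 ratio to the highest adult group was -2.79, and -2.73 without pupa 2. The list was led in adults by apd-3l, an apidermin gene, at a mean of 10583 FPKM in day 10 workers against 12.9 ± 25.0 FPKM in the 4 pupae and 0.407 ± 0.564 FPKM (SD, n = 3) without pupa 2. The 17 markers of epidermis and trachea, Cpap3-b among them, summed to 31.6, 93, 31.0 and 26.1 FPKM in pupae 1 to 4. In adults their sum ranged from 62.2 to 27153 FPKM at day 10 and from 21.3 to 138 FPKM at day 120. The highest pupal sum was in pupa 2, where apd-3l at 50.4 FPKM and Cpap3-b at 30.1 FPKM made up most of it. Cpap3-b was also most of the sum in the other pupae, so the sum is not independent of it. Gasp was highest in pupa 2 too, and tyn, neo and grh were highest in pupa 3. The part of these cells in the levels was not tested.

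Genes of metabolism and transport made a small group. Apoltp, the apolipoprotein of the lipid transfer particle, measured 55.4, 42.4, 71.9 and 57.2 FPKM in pupae 1 to 4 against 1.63 to 5.96 FPKM in adults. Pgm1, the phosphoglucomutase of glycogen turnover, measured 61.5, 19.3, 66.2 and 66.6 FPKM against 3.31 to 8.03 FPKM. Hex110, a hexamerin storage protein, was at 12.5, 3.68, 40.4 and 1.44 FPKM, and pupae 2 and 4 lay below the highest adult library, a day 20 worker at 4.91 FPKM. Hex110 was also among the 4 fat body and yolk markers, whose sum was 160, 246, 222 and 131 FPKM in pupae 1 to 4 and up to 4003 FPKM in day 120 gamergates. CTL5, a C-type lectin gene, was at 0.59, 13.7, 7.19 and 1.16 FPKM against 0.0431 to 1.03 FPKM. It dropped out of the choice when pupa 2 was left out. The remaining gene with a symbol, nw, was the third most abundant, at 210, 124, 211 and 207 FPKM in pupae 1 to 4 against 6.55 to 25.8 FPKM.

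Genes with only a LOC number included the largest contrasts. LOC105185734 was the second most abundant, at 416, 89.7, 361 and 348 FPKM in pupae 1 to 4, while no adult library exceeded 1.87 FPKM. It stood at 193 times the mean of day 10 workers, 238 times without pupa 2, and even pupa 2 alone was 57.0 times that mean. LOC105180852 measured 93.4, 30.8, 103 and 85.9 FPKM against 0.501 to 2.19 FPKM. Both kept all 4 pupae at 6 times every adult mean or more. LOC105188053, at 104, 53.7, 114 and 114 FPKM, and LOC105187804, at 102, 13.4, 126 and 92.1 FPKM, were expressed in adults as well, at 2.97 to 11.8 and 3.56 to 10.4 FPKM.

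Some of the largest ratios rested on very low adult values or on few pupae. LOC105182370 had a ratio of 190 at a pupal mean of 10.1 FPKM, with 20 of 33 adult libraries listed at 0. LOC105181614 had the highest ratio of all, 203, but its pupae were at 0.427, 1.95, 20.3 and 1.23 FPKM. LOC109504445, with a ratio of 126, was at 0.51, 0.395, 22.2 and 0.47 FPKM. LOC105185362 was at 38.0, 1.66, 47.7 and 35.3 FPKM, with pupa 2 below the highest adult library at 1.70 FPKM. LOC105186821 was at 2.66, 76.3, 61.8 and 6.05 FPKM, high in pupae 2 and 3, and its adult libraries reached 1.01 FPKM. Another 15 genes with only a LOC number had pupal means from 5.28 FPKM in LOC105180825 to 44.8 FPKM in LOC105185423, with ratios from 7.73 in LOC105186634 to 57.9 in LOC105191290. LOC112588072, LOC112588875, LOC105185334 and LOC105185337 are described with their neighbours. The non-coding RNAs were LOC112588874, at 14.7 to 23.5 FPKM in pupae and 0.38 to 4.92 FPKM in adults, and LOC112588181, at 6.91 to 36.2 FPKM and 0.203 to 1.55 FPKM.

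Pupa-high genes varied far more between the pupae than other genes did. Their median ratio of the highest to the lowest pupa was 6.17, against 1.33 in the 6252 other genes with a pupal mean of at least 5 FPKM. Only 10 of the 55, or 18.2%, stayed within 2-fold over the pupae, against 88.0% of the others. The 10 were nw, Con, Hr4, Apoltp, Cpap3-b, mthl1, Np, ImpE1, LOC112588874 and LOC112588875. Since the rule asks for a high pupal mean and not for evenness, genes with 1 very high pupa can enter it, and these shares are given as a description.

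The pupae took unequal places over the members, which were all measured in the same 4 libraries. Pupa 3 was the highest in 42 of the 55 genes, or 76.4%, against 30.9% of other genes, and pupa 2 the lowest in 33, or 60.0%, against 40.8%. In 24 genes, or 43.6%, pupa 2 stood at or below 0.5 times each other pupa, which held for 1.47% of other genes. These included cib, LOC105185734, E23, stan, sdk, Pgm1, ci, Actbeta and grh. In 10 genes pupa 3 was at least 2 times each other pupa, 18.2% against 0.208% of other genes, among them tyn, neo, grh, spz6, Hex110, LOC105185334 and LOC105185337. In 7 genes pupae 2 and 3 were both at least 2 times pupae 1 and 4, 12.7% against 0.384% of other genes, namely tyn, neo, spz6, CTL5, LOC105186821, LOC105191290 and LOC105191279.

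**Figure D3:**
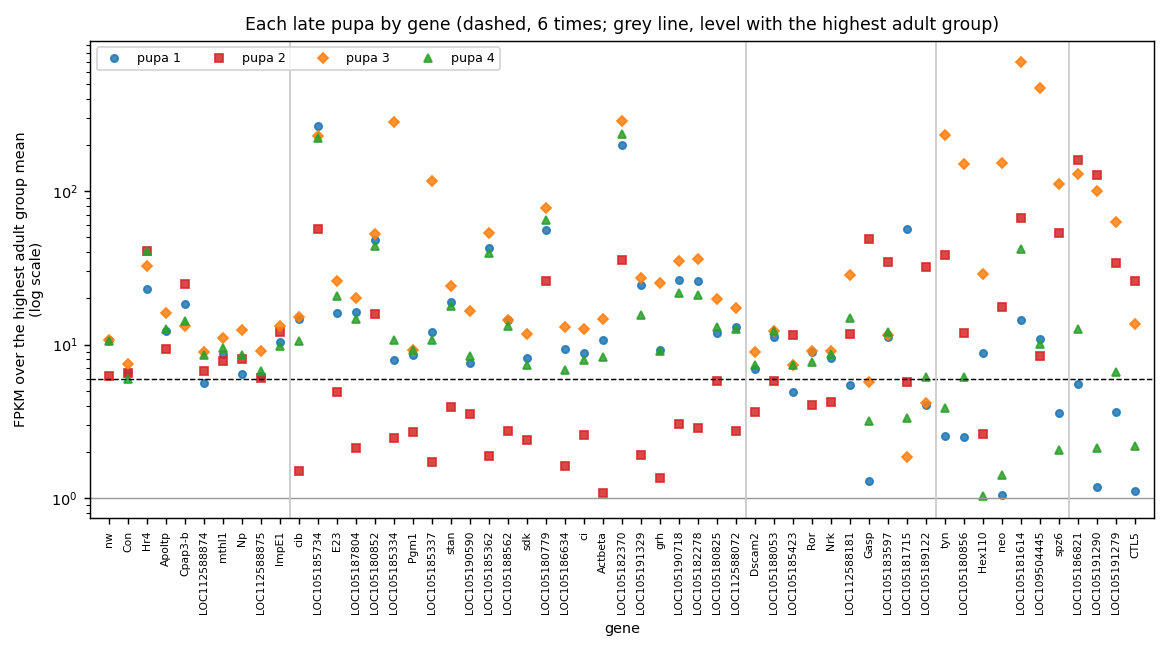
FPKM in each late pupa divided by the highest adult group mean (log scale), for the 55 pupa-high genes in the order of the heatmap. Pupa 2 (squares) lies under the dashed 6-fold line in 26 genes and pupa 3 (diamonds) is the highest point in 42.

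Each pupa in turn was left out of the choice and then set against the adult means. Those adult means had also chosen the genes, and all pupae share a batch, so this was no independent check. When the genes were chosen on pupae 2, 3 and 4, 40 of 62 genes were at 6 times every adult mean in pupa 1, or 64.5%. Left out in turn, pupa 3 reached that level in 37 of 41 genes, or 90.2%, pupa 4 in 45 of 58, or 77.6%, and pupa 2 in 25 of 69, or 36.2%. Pupa 2 was above every adult mean in 61 of its 69 genes. The share of all genes at either level in a single pupa was not counted, so these counts are a description only.

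At the limit, Con, Dscam2 and LOC112588875 lay just inside, with ratios of 6.65, 6.73 and 7.03. Just outside were uif at 5.97, LOC105185477 at 5.90 and LOC105184147 at 5.84. A further 8 genes met both limits on means but had a pupa below an adult mean. LOC105181881 was at 234, 0.0478, 271 and 101 FPKM in pupae 1 to 4 and LOC105190092 at 9.63, 1.07, 956 and 33.2 FPKM. Pupa 2 alone kept both of them out.

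Some pupa-high genes were neighbours in the order of genes of the reference annotation. LOC105185337 lay beside LOC105185334, LOC112588874 beside LOC112588875, and LOC105181614 beside grh. The first of these pairs was highest in pupa 3, with LOC105185337 at 15.0, 2.12, 143 and 13.3 FPKM and LOC105185334 at 5.81, 1.78, 207 and 7.83 FPKM in pupae 1 to 4. The next gene, LOC105185333, was no member but was also highest in pupa 3, at 1.06, 0.46, 16.8 and 1.08 FPKM. Both members of the second pair were within 2-fold over the pupae. LOC112588072 and stan had 2 genes between them, LOC105180761 and LOC112588192, with pupal means of 4.40 and 2.09 FPKM against highest adult means of 0.33 and 0.099 FPKM. Reads that neighbouring or near-identical genes share may have been divided in counting, so such values are uncertain.

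In adults the pupa-high genes could be tested only within a limit set by the rule. The rule compared no adult group with another, but it held every adult group mean far below the pupal mean. The adult values were thus part of the choice, and the adult tests are not independent of it. A gene was tested with limma on log2(FPKM + 0.5) when it had at least 1 FPKM in at least 4 of the 33 adult libraries, which held for 32 of the 55. The other 23, tyn, neo, grh, spz6, CTL5, Cpap3-b and ImpE1 among them, were too low in adults. Fold values from the log2(FPKM + 0.5) scale understate the change of low genes.

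Caste differences at a given day did not reach the threshold in any tested member. For duelers against workers at day 10, 0 of the 32 had a Benjamini-Hochberg adjusted p under 0.05 in limma, beside 0.0202% of 9893 genes, and 1 had an unadjusted p under 0.05. For gamergates against workers at day 20 the count was 0, beside 0.0101% of genes, with 3 members at an unadjusted p under 0.05. For gamergates against hunting workers at day 120 it was again 0, beside 0.0606% of genes (0.0202% higher and 0.0404% lower), with 7 members at an unadjusted p under 0.05. No other tool was run.

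The 2 lowest p-values at day 120, picked after the values were seen, belonged to Np and LOC112588875. Np stood at 1.14 ± 0.331 FPKM in gamergates (SD, n = 6) and 0.608 ± 0.129 FPKM in hunting workers (n = 9), with 5 of 6 gamergates above all hunting workers. Its log2 difference was 0.55 (SE 0.14, limma adjusted p = 0.138), and 1.00 and 0.41 within batches 1 and 4, where batch 1 held only 1 gamergate. LOC112588875 stood at 1.02 ± 0.346 against 0.374 ± 0.197 FPKM, and all 6 gamergates were above all 9 hunting workers. Its log2 difference was 0.74 (SE 0.20, limma adjusted p = 0.165), and 0.49 and 0.82 within the batches. Both passed the threshold when the batch term was dropped from the fit, which then called 56 of 9893 genes in place of 6. LOC112588875 reached 1 FPKM in only 4 adult libraries, of day 20 workers and day 120 gamergates. Np did so in 5, of day 10 duelers, day 20 workers and day 120 gamergates. Without the day 120 gamergates, where both were high, neither would have been tested, so these differences are no support for a direction.

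With adult age some pupa-high genes changed in each line. From day 10 workers to day 120 hunting workers, 6 of the 32 passed the threshold, or 18.8%, beside 29.1% of 9893 genes. Higher at day 120 were 2 members, beside 14.7% of genes, and lower were 4, beside 14.5% of genes. In the gamergate line, day 120 gamergates against day 10 duelers, 15 passed, or 46.9%, beside 38.1% of genes. Of these 9 were higher, beside 19.8% of genes, and 6 lower, beside 18.3%. Gasp, counted as lower in both lines, passed the filter only through day 10 libraries, where it was high. LOC112588875, among the 9 higher, passed it only with the day 120 gamergates, where it was high. The shares that hold these genes are therefore no support for a direction. The median log2 difference of the members was 0.01 in workers and 0.17 in the gamergate line, with 0.01 for all tested genes in both. Through the batch term, the log2 differences and p-values for age are set at the level of the day 120 libraries of batch 4. Means, medians, ranges and overlaps printed beside them cover all day 120 libraries of a group. Age, batch and role (worker to hunting worker, dueler to gamergate) changed together here and cannot be told apart. Marker sums moved with age as well. The 5 glia markers summed to 184 to 279 FPKM in day 10 workers and 119 to 152 FPKM in hunting workers. In the gamergate line they summed to 199 to 226 FPKM in duelers and 129 to 169 FPKM in day 120 gamergates. Group means of moody and Gat-1B fell in both lines. Gat-1B went from 149 to 79.6 FPKM in workers and from 145 to 81.8 FPKM in the gamergate line. Group means of repo and Gli rose in both lines, and that of axo rose in the gamergate line. The 4 fat body and yolk markers summed to 212 to 351 FPKM in duelers and 588 to 4003 FPKM in day 120 gamergates. The part of these cells in the changes was not tested.

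In both lines 4 members fell, namely nw, LOC105180852, LOC105185734 and Gasp. Gasp reached 1 FPKM in 5 adult libraries, all of day 10, so it was tested only through the day at which it was high, and its fall is no support for a direction. Apart from Gasp the members that fell numbered 3 in workers and 5 in the gamergate line. The nw gene was at 22.2, 15.4, 17.0 and 14.2 FPKM in day 10 workers and at 6.55 to 11.7 FPKM, with a median of 8.76, in day 120 hunting workers. All 9 hunting workers lay below all day 10 workers, and the log2 difference was -0.85 (SE 0.17, limma adjusted p = 0.000561). In the gamergate line it went from 20.0, 20.6, 25.8, 14.3 and 18.0 FPKM in duelers to between 7.94 and 13.8 FPKM, with a median of 11.6, in day 120 gamergates, also without overlap (log2 difference -0.75, SE 0.16, limma adjusted p = 0.000794). LOC105180852 went from 2.01, 2.04, 2.19 and 1.54 FPKM in day 10 workers to 0.507 to 1.16 FPKM, with a median of 1.01, in hunting workers, a log2 difference of -0.74 (SE 0.18, limma adjusted p = 0.00246). Its change in the gamergate line was -0.56 (SE 0.16, limma adjusted p = 0.00951), where 3 of 6 gamergates lay below all duelers. For both genes the day 10 means lay above those of day 120 in both lines. That the pupae lay above the day 10 means was set by the choice of the genes.

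LOC105185734 fell by 0.67 on the log2 scale in workers (SE 0.20, limma adjusted p = 0.0145) and by 0.80 in the gamergate line (SE 0.19, limma adjusted p = 0.00191). Its day 10 workers measured 0.783, 1.80, 1.84 and 1.87 FPKM and its hunting workers 0.45 to 1.33 FPKM, with a median of 0.804 and overlap. The duelers measured 1.30, 1.72, 1.11, 0.895 and 1.08 FPKM and day 120 gamergates 0.359 to 0.806 FPKM, with a median of 0.447 and no overlap. Gasp went from 0.704, 1.12, 2.78 and 0.0726 FPKM in day 10 workers to 0.00 to 0.21 FPKM, with a median of 0.0405, in hunting workers (log2 difference -1.25, SE 0.33, limma adjusted p = 0.00504). From duelers at 1.35, 0.572, 2.35, 1.66 and 0.395 FPKM it went to 0.00 to 0.129 FPKM, with the same median, in day 120 gamergates (log2 difference -1.55, SE 0.31, limma adjusted p = 0.000297). The epidermis and trachea markers, at 62.2 to 27153 FPKM in sum at day 10 and 21.3 to 138 FPKM at day 120, moved with Gasp. In group means apd-3l alone made up most of the day 10 sum, at 10583 FPKM in workers and 5127 FPKM in duelers. The part of these cells in the fall of Gasp was not tested.

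Pgm1 rose in both lines. It stood at 3.78, 3.92, 3.31 and 3.98 FPKM in day 10 workers and at 4.35 to 6.92 FPKM, with a median of 5.41, in hunting workers, all 9 above all day 10 workers (log2 difference 0.64, SE 0.11, limma adjusted p = 0.000111). In the gamergate line it went from 4.46, 4.37, 4.57, 4.59 and 5.32 FPKM to between 5.95 and 8.03 FPKM, with a median of 7.48, again without overlap (log2 difference 0.63, SE 0.11, limma adjusted p = 4.5e-05). Its day 20 means, 5.91 FPKM in workers and 5.84 FPKM in gamergates, were already above those of day 10. LOC105188562 rose in workers alone among the calls, from 0.571, 0.624, 0.722 and 1.17 FPKM to 0.609 to 2.32 FPKM, with a median of 1.43 and overlap (log2 difference 0.63, SE 0.23, limma adjusted p = 0.0387).

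In the gamergate line the further genes that rose were Hr4, E23, Dscam2, sdk, ci, LOC112588874, LOC112588875 and LOC112588181. Hr4 went from 1.09, 0.705, 1.27, 1.10 and 0.975 FPKM in duelers to 1.5 to 1.98 FPKM, with a median of 1.79, in day 120 gamergates, without overlap (log2 difference 0.58, SE 0.17, limma adjusted p = 0.00775). The sidekick gene sdk went from 0.848, 0.686, 1.74, 0.961 and 1.38 FPKM to 1.78 to 2.28 FPKM, with a median of 1.93 and all 6 gamergates above all duelers (log2 difference 0.68, SE 0.18, limma adjusted p = 0.00438). E23 went from 2.46, 1.83, 4.74, 1.91 and 4.39 FPKM to 3.91 to 6.30 FPKM, with a median of 4.98 and 4 of 6 above all duelers (log2 difference 0.76, SE 0.24, limma adjusted p = 0.0123). For Dscam2 the duelers, at 8.76, 7.94, 20.6, 7.21 and 14.2 FPKM, spanned the 16.2 to 20.0 FPKM of the gamergates (median 18.6), at a log2 difference of 0.76 (SE 0.28, limma adjusted p = 0.0344).

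LOC112588874 went from 0.763, 0.507, 2.54, 0.38 and 1.22 FPKM in duelers to 2.22 to 3.26 FPKM, with a median of 2.55, in day 120 gamergates. It and its neighbour LOC112588875 rose by 1.17 (SE 0.32) and 0.64 (SE 0.22) on the log2 scale, with limma adjusted p of 0.00528 and 0.0236. Duelers 3 and 5 were the highest duelers for both of them, and also for Dscam2, E23 and sdk. LOC112588875 would not have been tested without the day 120 gamergates, where it was high, so its rise is no support for a direction. The hedgehog factor gene ci and LOC112588181 rose by 0.42 (SE 0.15) and 0.46 (SE 0.17), with limma adjusted p of 0.0282 and 0.0353. Actbeta went from 1.66, 1.17, 1.26, 1.07 and 1.08 FPKM to 0.522 to 0.95 FPKM, with a median of 0.74. Lower at day 120 were thus Actbeta, by a log2 difference of -0.51 (SE 0.17, limma adjusted p = 0.0185) with all 6 gamergates below all duelers, and LOC105185337, at -0.60 (SE 0.19, limma adjusted p = 0.0146) with 5 of 6 below.

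Several of these calls depended on 1 library. The call of LOC105188562 was lost when worker 1, 2 or 3 of day 10 or hunting worker 5, 6 or 9 was left out, that of LOC105185734 in workers without worker 3 or 4, and that of Gasp in workers without worker 3. Without worker 3, 3 members were called in workers, and over all genes the count also fell, from 2881 of 9893 to 1696 of 9867. In the gamergate line the calls of LOC112588181, Dscam2 and ci were lost without dueler 2 or 4 or gamergate 5 or 6 of day 120. Those of LOC112588181 and Dscam2 were also lost without dueler 1, that of LOC112588181 without gamergate 2 or 3, and that of Dscam2 without gamergate 1 or 4. E23 was lost without dueler 2, LOC112588875 without dueler 2 or 4, and Actbeta without dueler 1. Dropping the batch term, or fitting only the 2 groups compared, also lost the call of LOC105188562. A pseudocount of 0.1 lost that of LOC112588181. With all 37 libraries in the fit, Gasp, LOC105185734 and LOC105188562 lost their calls in workers, and Actbeta, LOC105185337, ci and LOC112588181 in the gamergate line. With a replicate block, nw, Gasp, LOC105185734 and LOC105188562 lost theirs in workers, and Dscam2, ci and LOC112588181 in the gamergate line, although the numbers are not shown to pair libraries of these groups. Scaling to TPM moved the median of all genes up by 0.47 on the log2 scale in workers and by 0.22 in the gamergate line. On that scale 10 members were higher and 4 lower in workers, in place of 2 and 4, and nw, LOC105180852 and LOC105185734 lost their calls there, as did LOC105180852 and Actbeta in the gamergate line.

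The change from day 10 to day 120 did not differ detectably between the lines. The difference of the 2 changes, tested in limma after the data had been seen, gave 0 of 32 members and 0 of 9893 genes, or 0.0%, at an adjusted p under 0.05, with 1 member and 363 genes at an unadjusted p under 0.05. Calls in the gamergate line alone, such as Hr4, sdk and E23, are therefore not shown to be particular to it. On the ecdysone list, 3 of 11 genes were higher in the gamergate line at day 120 and 0 lower, beside 19.8% and 18.3% of all tested genes, and 0 of 11 passed in workers, beside 29.1%. On the axon guidance and adhesion list, 6 of 28 were higher and 4 lower in the gamergate line, beside the same 19.8% and 18.3%. In workers 2 were higher and 6 lower, beside 14.7% and 14.5% of all tested genes.

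**Figure D4:**
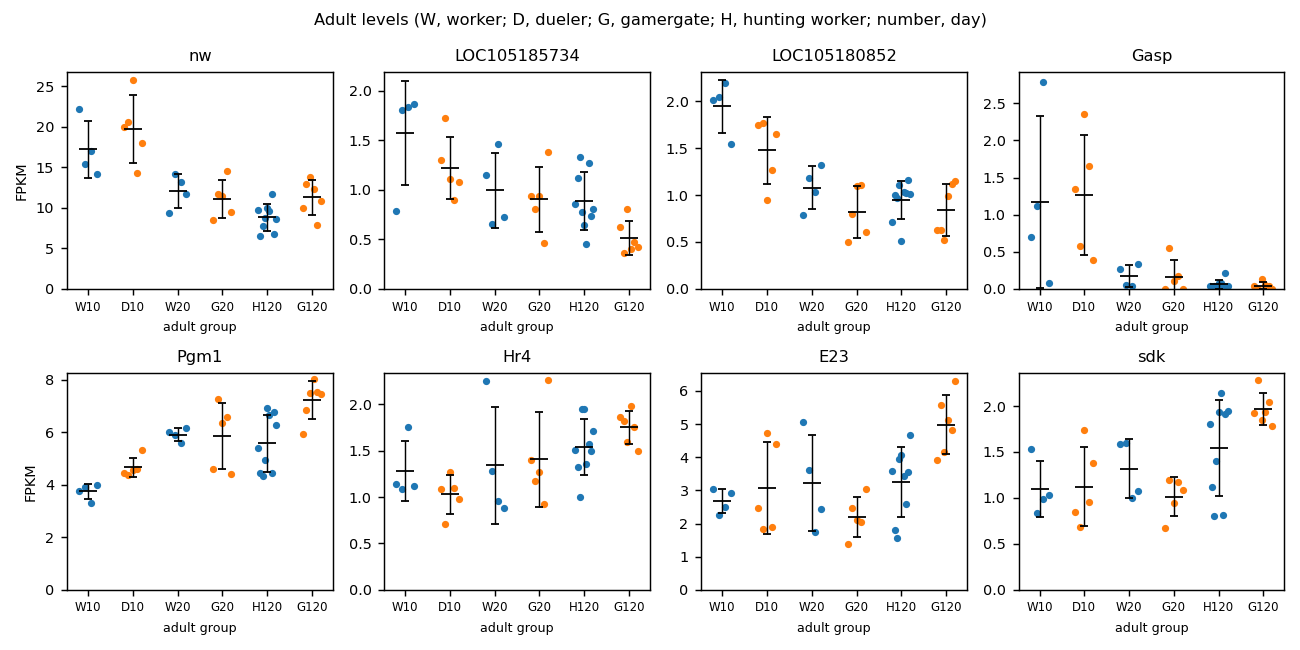
FPKM of 8 pupa-high genes called with age, in each adult library (points) with the group mean and SD (black); blue points are workers and hunting workers, orange points duelers and gamergates. Levels of nw, LOC105185734, LOC105180852 and Gasp lay lower at day 120 than at day 10, and those of Pgm1 higher; Hr4, E23 and sdk passed the threshold in the gamergate line, though the test of the difference between the lines did not pass.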

How the data were processed

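The authors deposited 1 table of FPKM per gene for 14001 genes and 37 libraries. They list bcl2fastq, STAR and featureCounts in the submitters' processing notes, and the libraries kept the strand, per the labels' protocols. Tool versions and build were not given in the sources used here, and coordinates are left out. The deposited FPKM had median-of-ratios factors of 0.994 to 1.017, so libraries were compared as deposited. Low values fell on steps within 0.1 of a step in 13429 of 13445 genes above 0, but for some genes a step was 0.5 of a read, so whole reads were not recovered. Symbols were looked up in RefSeq's gene table of Hsal_v8.6, where 13989 identifiers matched. Adult groups were compared with limma 3.58.1 in R 4.3.3 (lmFit, and eBayes with an intensity trend) on log2(FPKM + 0.5). All 33 adult libraries entered 1 fit with a batch term within day 120, which sets comparisons of day 120 with day 10 at the level of batch 4. Tests were two-sided with Benjamini-Hochberg adjustment over all tested genes at 0.05. On simulated data of that layout the fit was checked to recover known changes.

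The members, gene lists and markers were chosen with earlier results of these data known. Lists were matched by symbol, and Cpr alone, a reductase, was kept off the cuticle list. Genes named are the 12 with the highest pupal mean, the 8 with the largest log2 ratio of pupal to adult means after adding 0.5, genes called in adults, list members, genes beside the limit, neighbours and genes with a symbol. Same-numbered libraries of day 20 deviated together in all 4 pairs (r 0.102 to 0.453), as read from the data and not stated by the labels. A replicate block changed no call there. Alternatives tried were other scalings, limits, pseudocounts, filters, fits and each library left out.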

Additional observations from a re-analysis of the deposited data

Results flagged for a closer look

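Of 97 groups of values examined, 15 held a library far from the others of its group by Dixon's gap on the log2(FPKM + 0.5) scale, where chance gives about 1 in 20. Late pupae gave 12 of the 15, and in 11 of these the library was pupa 2. Pupa 2 was low for cib at 61.8 FPKM, LOC105185734 at 89.7, nw at 124, LOC105188053 at 53.7, LOC105187804 at 13.4, LOC105180852 at 30.8, Pgm1 at 19.3, LOC105185362 at 1.66, Nrk at 11.8 and LOC105188562 at 3.74 FPKM. The other pupae lay at 438 to 625 FPKM for cib, 348 to 416 for LOC105185734, 207 to 211 for nw and 61.5 to 66.6 for Pgm1. Pupa 2 was high for LOC105183597, at 36.9 FPKM against 12.0 to 13.0 in the others. Pupa 3 was high for LOC109504445, at 22.2 FPKM against 0.395 to 0.51. These values come from the same libraries and are not independent of each other.

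In adults, hunting worker 8 of day 120 was high for Gasp at 0.21 FPKM, above 0.00 to 0.0857 in the others. Worker 1 of day 10 was low for LOC105185734 at 0.783 FPKM, below 1.80 to 1.87. Dueler 5 of day 10 was high for Pgm1 at 5.32 FPKM, above 4.37 to 4.59.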

How the results depend on the processing

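The choice gave 55 genes with the deposited scaling, 98 in TPM, 93 at a 4-fold limit, 39 at a 10-fold limit, 39 at a pupal mean of 10 FPKM, 54 on group medians (46 of them among the 55) and between 41 and 69 when a library was left out. Equal FPKM totals, tried after seeing the data, gave 63. The number of members called was 0 for both earlier caste comparisons under every alternative run. For gamergates against hunting workers it was 0, and 2 without the batch term, where the count over all genes went from 6 to 56 of 9893. For age in workers it was 6, and 11 without the filter, 2 at 5 FPKM or more, 14 in TPM, 3 with all 37 libraries in the fit, 3 with the replicate block and 3 to 9 with a library left out. For age in the gamergate line it was 15, and 4 at 5 FPKM or more (10 members tested), 12 with the replicate block and 10 to 18 with a library left out. Over all genes the count for age in the gamergate line, 3769, lay between 2888 and 4121 with a library left out. It was 2978 with the block and 2774 of 7151 at 5 FPKM or more. The count for age in workers, 2881, lay between 1696 and 3710 with a library left out. It was 2934 of 13410 without the filter, 2081 of 7151 at 5 FPKM or more and 2751 with all 37 libraries. The block moved it to 877. TPM moved it to 5995, with 11661 genes tested in place of 9893, and the split from 1450 higher and 1431 lower to 5638 and 357; in the gamergate line the split went from 1959 and 1810 to 3156 and 823. Same-numbered libraries deviated together, at r over 0.1, in all 4 pairs at day 20, where the block left the count at 0. Such an r held in 3 of 4 pairs for age in workers and in 3 of 6 pairs at day 120. It held in 1 of 4 pairs at day 10 and in 1 of 5 for age in the gamergate line. The labels state no pairing. Of 21 called gene and comparison pairs over 431 alternatives, 378 kept the call, 53 lost it and 0 reversed. A voom fit on recovered reads was not run, since reads came out as fractions for some genes. The limits are the 4 pupae, of which pupa 2 stood apart, the single batch of pupae, and adult levels near 1 FPKM, where FPKM steps of a read are large.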
